A study of Rattus norvegicus with 372 samples.

Results

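The genes of 10 nuclear receptors, most of which sense lipids or foreign chemicals in the liver, were followed through all treatments of the series. They were Ppara, Ppard, Pparg, Rxra, Nr1i2, Nr1i3, Nr1h3, Nr1h4, Nr0b2 and Esr1, and their values were taken by name, from every probe of the WT assay (whole transcriptome) that carries one of these symbols. All 10 were on the WT assay, with 16 of its 22253 probes, and the probes of one symbol were added, which gave 10 of 20946 genes. On the ST assay (the S1500+ surrogate gene set) 9 of the 10 had probes, 12 of 2654, and Nr0b2 had none.

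The cells were primary hepatocytes of male Wistar rats, plated at 25000 cells per well between layers of collagen in 96-well plates. Over 24 h they received 1 of 14 chemicals, each at a low and a high concentration, all in medium with 0.5% DMSO, and were compared with vehicle wells (the same medium and DMSO with no chemical), while media wells had culture medium alone. The medium of all groups contained dexamethasone, insulin and epidermal growth factor. Each batch was made from the liver of 1 rat, so the 3 wells of a treatment in a batch repeat the same cells. The libraries of the 2 batches were also built and sequenced separately, so animal, library preparation and sequencing run cannot be told apart. Batch 1 had 3 vehicle and 3 media wells, all on one of its plates, and the 12 treatments of the other plate (acetaminophen, chloramphenicol, indomethacin, ketoconazole, sulfasalazine and WY14643) had no vehicle beside them. Batch 2 had 6 vehicle and 6 media wells, 3 on each of its plates. Dexamethasone is itself a ligand of the glucocorticoid receptor and, at high doses in rodents, of the receptor encoded by Nr1i2, and it was present in vehicle and treated wells alike.

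Nuclear receptors are transcription factors whose activity is set by small lipophilic ligands. Ppara, Ppard and Pparg encode the PPARs, which bind fatty acids and fibrate-like drugs and, as heterodimers with RXRα (Rxra), switch on genes of fatty acid oxidation and lipid storage. Nr1i2 and Nr1i3 encode PXR and CAR, the sensors of foreign chemicals that induce cytochrome P450 enzymes, and they also need RXR. Nr1h3 encodes LXRα, a sensor of oxysterols, Nr1h4 encodes FXR, the bile acid receptor, and Nr0b2 encodes SHP, a receptor without a DNA-binding domain that FXR induces and that represses bile acid synthesis. Esr1 encodes estrogen receptor α, which the liver also expresses.

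Receptors of this family bind short half-sites in DNA, of which the direct repeat half-site AGGTCA, its common variant GGGTCA, and the form AGTTCA that occurs in elements of PXR and CAR were searched for, on both strands, in the 250 bases before and 50 bases after gene starts listed by RefSeq on GRCr8. Promoters were found for Esr1, Rxra, Nr1h3, Pparg (2), Nr0b2, Ppara, Nr1i2 and Nr1i3, so 8 of the 10 genes matched, and Ppard and Nr1h4 had none in the table. Shown are the 3 receptor genes whose levels moved together most often, then Nr0b2, and then Esr1, the receptor gene that was only ever called lower. All 5 lie on the + strand, and capitals mark a half-site.
Ppara, chr7:118712357-118712656: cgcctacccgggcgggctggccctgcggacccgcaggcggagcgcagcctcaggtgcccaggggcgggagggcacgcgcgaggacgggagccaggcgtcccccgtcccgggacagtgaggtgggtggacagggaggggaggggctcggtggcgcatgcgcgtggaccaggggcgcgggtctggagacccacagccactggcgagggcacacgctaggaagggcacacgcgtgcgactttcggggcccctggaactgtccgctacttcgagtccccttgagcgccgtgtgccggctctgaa
Nr1i2, chr11:75965467-75965766: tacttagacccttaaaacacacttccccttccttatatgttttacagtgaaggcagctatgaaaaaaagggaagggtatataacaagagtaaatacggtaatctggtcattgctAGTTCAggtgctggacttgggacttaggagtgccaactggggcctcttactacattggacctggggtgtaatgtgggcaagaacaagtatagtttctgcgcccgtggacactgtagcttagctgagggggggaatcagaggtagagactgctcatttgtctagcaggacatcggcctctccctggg
Nr1i3, chr13:86165170-86165469: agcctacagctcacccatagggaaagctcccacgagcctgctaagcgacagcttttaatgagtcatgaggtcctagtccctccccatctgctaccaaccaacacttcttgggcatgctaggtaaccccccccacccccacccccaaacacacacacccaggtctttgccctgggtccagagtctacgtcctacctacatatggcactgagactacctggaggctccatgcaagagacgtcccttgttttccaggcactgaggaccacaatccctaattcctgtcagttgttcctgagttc
Nr0b2, chr5:151062910-151063209: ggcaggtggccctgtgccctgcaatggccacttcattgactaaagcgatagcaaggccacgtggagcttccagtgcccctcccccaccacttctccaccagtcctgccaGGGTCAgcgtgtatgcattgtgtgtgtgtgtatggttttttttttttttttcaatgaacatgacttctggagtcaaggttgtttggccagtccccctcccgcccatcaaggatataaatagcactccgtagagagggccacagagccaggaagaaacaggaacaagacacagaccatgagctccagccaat
Esr1, chr1:43641845-43642144: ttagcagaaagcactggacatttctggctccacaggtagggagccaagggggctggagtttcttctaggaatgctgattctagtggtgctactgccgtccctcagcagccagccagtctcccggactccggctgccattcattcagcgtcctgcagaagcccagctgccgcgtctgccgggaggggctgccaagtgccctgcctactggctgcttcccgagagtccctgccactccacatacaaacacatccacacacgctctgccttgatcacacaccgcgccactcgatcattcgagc
Nr1i2 held AGTTCA from base -136 to -131 of its start and Nr0b2 held GGGTCA from -141 to -136, each on the strand of the gene, while the windows of Ppara, Nr1i3 and Esr1 held none of the 3 half-sites. Among the promoters not shown, Nr1h3 held AGTTCA, both Pparg windows held GGGTCA and Rxra held none. Of 33469 promoters of the same length, 16.2% held AGGTCA, 13.8% held GGGTCA, 14.5% held AGTTCA and 37.6% held at least 1 of them.

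A WT library held between 2709504 and 8948654 reads in batch 1 (median 6210462) and between 2289425 and 8975207 in batch 2 (median 7220136). The 10 genes passed the filter of a mean of 10 counts over all wells, which 10191 genes passed in all, but Nr0b2 did so narrowly with a mean of 10.8 counts, which is 9.74 without the WY14643 200 µM wells and 9.71 without the naproxen 2000 µM wells. Its count was at most 3 in 35 of the 186 wells, as was that of Nr1i3 in 13, so their low values are coarse. The hepatocyte identity of the vehicle wells was plain, since the summed level of 8 hepatocyte markers (Alb, Apoa1, Tf and others) was 37620 to 44860 CPM (the counts of a gene scaled to 1000000 reads of the well). Over the same wells 7 myeloid markers summed to 26.5 to 46.4 CPM, 6 stellate and fibroblast markers to 34.6 to 167 CPM, 5 endothelial markers to 1.61 to 3.39 CPM and 5 biliary markers to 37.7 to 50.6 CPM. The biliary marker Krt7 was at 0 in all 9 vehicle wells, and Des and Col1a1 were at 0 in 6 and 7 of them. Most of the biliary sum in vehicle was Epcam (27.3 to 44.3 CPM), so that sum rests mainly on 1 gene.

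Levels of the receptor genes changed in most of the strong treatments and in few of the weak ones. Each of the 28 treatments and media was compared with vehicle in 1 edgeR fit over both batches, and a change was called at an adjusted p under 0.05 over all genes. Of the 290 tests of a receptor gene, 123 were called, 65 higher and 58 lower. With the wells of a rat added to 1 sample, 88 of the 123 remained called, and Pparg, Rxra and Nr0b2 lost calls. The tested genes as a whole had a median of 8 called comparisons out of 29 each, while Nr1i3 had 18, Nr1i2 17, Ppara and Rxra 15 each, Esr1 14, Pparg 11, Nr0b2 10, Nr1h3 and Nr1h4 8 each and Ppard 7. In bulk lysate, fewer cells of a type and less RNA of a gene per cell cannot be told apart.

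**Figure D1:**
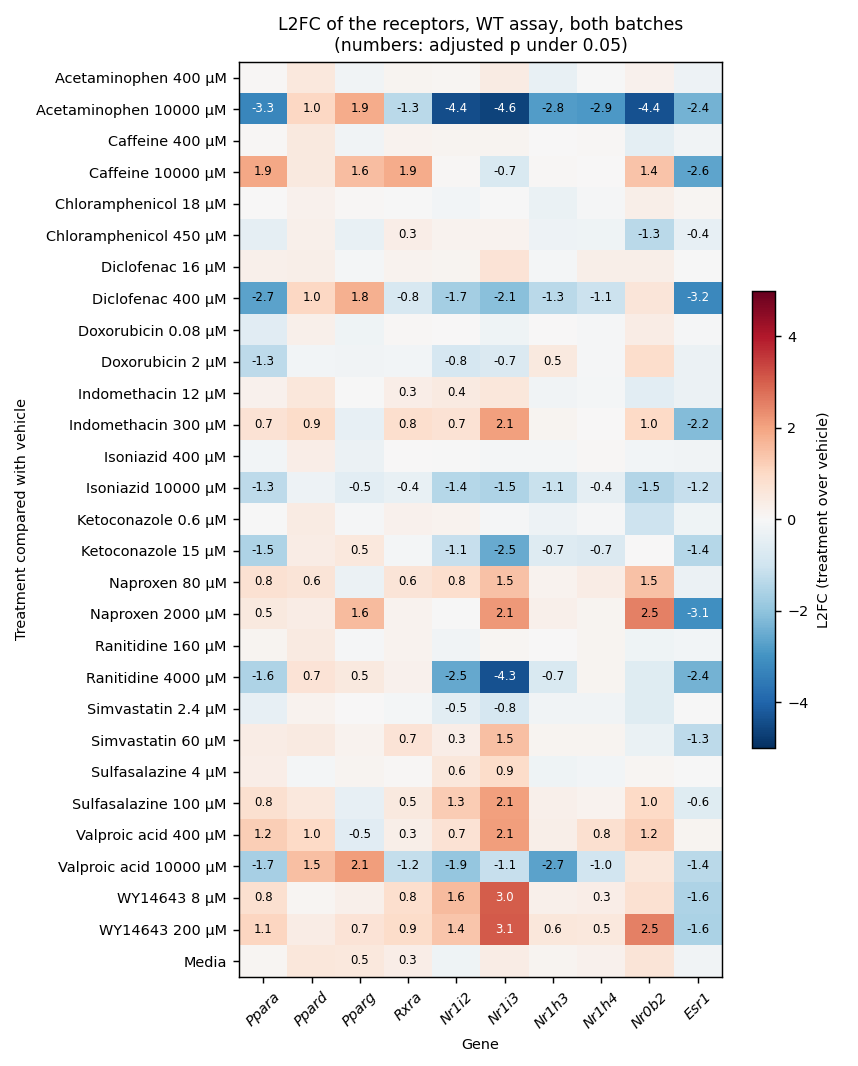
L2FC of each receptor gene (columns) in each treatment and in media (rows) over vehicle, WT assay, both batches; a number in a cell marks an adjusted p under 0.05. Acetaminophen at 10000 µM lowered 8 of the 10 genes, WY14643 raised Nr1i3 by 3.04 and 3.06, and the column of Esr1 holds decreases only among its called cells.

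Acetaminophen at 10000 µM was the treatment in which all 10 genes were called, 2 higher and 8 lower, beside 78.9% of all genes called. Of the 10 genes, 9 were called with diclofenac at 400 µM (2 higher and 7 lower, 71.7% of all genes), isoniazid at 10000 µM (0 higher and 9 lower, 34.7%), valproic acid at 10000 µM (2 higher and 7 lower, 66.7%) and WY14643 at 200 µM (8 higher and 1 lower, 51.4%). Valproic acid at 400 µM had 7 higher and 1 lower (29.1%), indomethacin at 300 µM 6 higher and 1 lower (54.7%), ketoconazole at 15 µM 1 higher and 6 lower (51.3%) and ranitidine at 4000 µM 2 higher and 5 lower (66.2%). Caffeine at 10000 µM had 4 higher and 2 lower (66.2%), sulfasalazine at 100 µM 5 higher and 1 lower (40.9%), WY14643 at 8 µM 5 higher and 1 lower (56.2%) and naproxen 6 higher and 0 lower at 80 µM (16%) against 4 higher and 1 lower at 2000 µM (53.8%). In acetaminophen, caffeine, diclofenac and ranitidine at their high concentrations most of the genes tested were thus called too. Isoniazid at 10000 µM, valproic acid at 400 µM and naproxen at 80 µM called a minority of all genes but most receptor genes. For sulfasalazine at 100 µM the shares were closer. Its call of Rxra had an L2FC of -0.04 in batch 2 against vehicle of the same plate. Summed hepatocyte markers were below the vehicle range in isoniazid, at 25310 to 30740 CPM, and their part in its result was not tested. The counts of WY14643 at 200 µM and naproxen at 2000 µM include Nr0b2 among the higher genes. Nr0b2 would not have passed the filter without the wells of either treatment.

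Simvastatin at 60 µM had 3 higher and 1 lower (23.9% of all genes called), doxorubicin at 2 µM 1 higher and 3 lower (19.4%) and chloramphenicol at 450 µM 1 higher and 2 lower (33.3%). Simvastatin at 2.4 µM had 0 higher and 2 lower (2.4%), while indomethacin at 12 µM (5.87%), sulfasalazine at 4 µM (17.4%) and media (12.6%) had 2 higher and 0 lower each. No receptor gene was called with acetaminophen at 400 µM (1.38% of all genes), caffeine at 400 µM (0.118%), chloramphenicol at 18 µM (0.0883%), diclofenac at 16 µM (0.137%), doxorubicin at 0.08 µM (1.32%), isoniazid at 400 µM (0.0196%), ketoconazole at 0.6 µM (1.62%) or ranitidine at 160 µM (0.0589%). In media, Pparg (L2FC 0.53, SE 0.18, adjusted p = 0.032) and Rxra (0.31, SE 0.09, adjusted p = 0.010) were higher than in vehicle by WT assay, and the 8 others were not called. The rise of Rxra was not seen by ST assay, where its L2FC in media was -0.04 (adjusted p = 0.84). Fitted one by one, the 3 tested Pparg probes had L2FC of 0.55, 0.47 and 0.62 in media. None of them was called there (adjusted p = 0.086, 0.12 and 0.19).

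Ppara, the PPAR that dominates in liver and drives fatty acid oxidation, was called higher in 8 comparisons and lower in 7. Its vehicle level was 29.4, 38.6 and 33.0 CPM in the wells of batch 1 and had a lowest value of 66.5, a median of 74.1 and a highest of 85.5 CPM in batch 2, so the 2 batches did not overlap. Caffeine at 10000 µM raised it to 114, 172 and 134 CPM in batch 1 and to 170, 229 and 300 CPM in batch 2 (L2FC 1.92, SE 0.20, adjusted p = 1.1e-16). All 6 caffeine wells lay above all vehicle wells of their batch. Valproic acid at 400 µM gave 71.6, 103 and 97.0 CPM in batch 1 and 133, 160 and 178 CPM in batch 2 (L2FC 1.23, SE 0.20), again above every vehicle well of the same batch. WY14643, a synthetic PPARα agonist, raised it at both concentrations, with L2FC of 0.80 at 8 µM and 1.08 at 200 µM (SE 0.20 each, adjusted p = 0.00036 and 1.2e-06).

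The largest decreases of Ppara exceeded its largest increase in size. In acetaminophen at 10000 µM its wells held 3.85, 2.00 and 3.22 CPM in batch 1 and 6.18, 9.12 and 2.03 CPM in batch 2, or 9.60-fold less than vehicle (L2FC -3.26, SE 0.27, adjusted p = 2.5e-23). Diclofenac at 400 µM left 8.03, 11.4 and 8.76 CPM in batch 1 and 8.26, 8.18 and 8.80 CPM in batch 2 (L2FC -2.68, SE 0.25). Although the batches differed in vehicle, the diclofenac wells of both batches came to similar levels, and their L2FC was -1.88 in batch 1 and -3.29 in batch 2. Valproic acid at 10000 µM (L2FC -1.67, SE 0.23), ranitidine at 4000 µM (-1.56, SE 0.23) and ketoconazole at 15 µM (-1.53, SE 0.23) followed, and in all 3 the wells lay below vehicle in both batches. Summed hepatocyte markers were also below the vehicle range in these wells, at 23320 to 36410 CPM in acetaminophen, 7016 to 9498 CPM in diclofenac, 15850 to 22580 CPM in valproic acid at 10000 µM, 12040 to 17820 CPM in ranitidine and 19910 to 23440 CPM in ketoconazole, and their part in the result was not tested. They were below that range in caffeine too, at 18780 to 25400 CPM, where Ppara was higher, and their part there was not tested either.

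Ppard and Pparg, the PPARs linked to fatty acid use in many tissues and to fat storage, were mainly called higher. Ppard was called in 7 comparisons, all higher, from a vehicle level of 0.893 to 2.19 CPM in batch 1 and 1.78 to 3.81 CPM in batch 2, which are counts of 5 to 26. With valproic acid at 10000 µM it reached 5.69, 5.89 and 4.24 CPM in batch 1 and 8.15, 9.36 and 9.83 CPM in batch 2 (L2FC 1.52, SE 0.21, adjusted p = 8.0e-11), above all vehicle wells. Diclofenac at 400 µM (L2FC 1.05, SE 0.22) also put all its wells above vehicle, while the acetaminophen wells at 10000 µM (L2FC 1.02, SE 0.23, adjusted p = 3.3e-05) overlapped vehicle in CPM in both batches. The acetaminophen value fell to an L2FC of 0.62 when plain library sizes replaced TMM scaling, which shifted the median gene of that comparison by -0.41.

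Pparg was called higher in 9 comparisons and lower in 2, and had fewer calls with wells of a rat added or no batch term. Its vehicle wells held 4.60, 4.37 and 6.25 CPM in batch 1 and a lowest of 8.47, a median of 10.6 and a highest of 13.6 CPM in batch 2. Valproic acid at 10000 µM raised it to 35.4, 35.7 and 32.2 CPM in batch 1 and 38.3, 40.4 and 42.1 CPM in batch 2, a 4.31-fold rise (L2FC 2.11, SE 0.19, adjusted p = 2.6e-21). No treated well came near the vehicle range. In these wells summed biliary markers were 51.0 to 77.2 CPM, above their vehicle range of 37.7 to 50.6 CPM, and myeloid and hepatocyte markers were below theirs, at 13.1 to 20.7 and 15850 to 22580 CPM, and their part in the rises of Pparg and Ppard was not tested. The next rises were those of acetaminophen at 10000 µM (L2FC 1.85), diclofenac at 400 µM (1.77), naproxen at 2000 µM (1.57) and caffeine at 10000 µM (1.55, SE 0.19 each), which all put their wells above vehicle in both batches. Summed hepatocyte markers were below vehicle in each of these. So were myeloid markers in caffeine (5.64 to 14.6 CPM) and biliary markers in diclofenac (6.81 to 10.5 CPM) and naproxen (9.74 to 20.1 CPM). The part of these markers was not tested. Pparg and Ppard rose while Ppara fell in acetaminophen, diclofenac and valproic acid at their high concentrations. In caffeine Ppara and Pparg both rose. The Ppard rise in acetaminophen overlapped vehicle wells and was not called in batch 2 against vehicle of the same plate. Pparg had 5 probes of which 3 passed the filter and carried 45.3%, 36.1% and 15.4% of its counts, and fitted one by one they were called higher in 7, 6 and 6 comparisons and lower in 0, 2 and 3.

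Of 20 listed PPAR target genes 16 were on the assay and were tested. With WY14643, 16 of 16 rose at 8 µM (median L2FC 4.30, against -0.01 over all genes, of which 28% were called higher and 28.2% lower) and 16 of 16 rose at 200 µM (median 4.32, against -0.01, with 26% higher and 25.4% lower). Cyp4a1, a fatty acid ω-hydroxylase, went from a median of 1.64 CPM in vehicle to 2057 to 2569 CPM at 8 µM and 2450 to 3462 CPM at 200 µM. Ehhadh, a peroxisomal β-oxidation enzyme, went from 0.751 to 3.02 CPM to 2107 to 2799 CPM at 8 µM and 1710 to 2534 CPM at 200 µM. Acot1, an acyl-CoA thioesterase, had at most 1 count in any vehicle well and 545 to 720 CPM at 8 µM and 684 to 915 CPM at 200 µM. Ppara itself differed by 0.28 on the L2FC scale between 200 and 8 µM (95% interval -0.16 to 0.72).

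Valproic acid, a branched fatty acid drug, raised 16 of 16 of these targets at 400 µM (median L2FC 2.14, against -0.01 over all genes, with 15.1% called higher and 14% lower), where Ppara was higher too. At 10000 µM, where Ppara was lower, 14 were higher and 1 lower (median 1.46, against 0.00, with 33.5% higher and 33.2% lower). Of the 14, Fgf21 had an L2FC of -0.10 in batch 1 and 1.19 in batch 2. Cyp4a2 rose from 8.12 to 13.6 CPM in vehicle to 1724 to 3376 CPM at 400 µM and 56.4 to 270 CPM at 10000 µM. Pdk4, which spares glucose by inhibiting pyruvate dehydrogenase, had at most 2 counts in a vehicle well and 5.21 to 11.1 CPM at 10000 µM. Members of the Cyp4a and Acot families are close in sequence, so reads of one may reach the probe of another. In vehicle wells Acot1 and Pdk4 averaged 0.222 and 1.11 counts, so they passed the filter only through groups where they are high, and over the 14 other targets all 14 were higher with WY14643 at 8 and 200 µM and valproic acid at 400 µM, and 12 were higher and 1 lower in valproic acid at 10000 µM. The medians of the list were the same with Acot1 and Pdk4 set to the fold that 3 counts, or their own vehicle counts if more, over all vehicle wells allow.

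Rxra, the shared partner of PPARs, PXR, CAR, LXR and FXR, was called higher in 11 comparisons and lower in 4. It had fewer calls with the wells of a rat added to 1 sample. Vehicle wells held 176, 165 and 159 CPM in batch 1 and a lowest of 186, a median of 202 and a highest of 222 CPM in batch 2. Caffeine at 10000 µM raised it to 557, 596 and 583 CPM in batch 1 and 540, 706 and 682 CPM in batch 2, or 3.63-fold (L2FC 1.86, SE 0.10, adjusted p = 2.9e-40). Acetaminophen at 10000 µM lowered it to 42.3, 52.6 and 44.7 CPM in batch 1 and 71.7, 76.2 and 42.7 CPM in batch 2 (L2FC -1.35, SE 0.11, adjusted p = 1.9e-24), and valproic acid at 10000 µM lowered it by 1.18 on the log2 scale (SE 0.11). In all 3 treatments the wells lay clear of vehicle in both batches. Ppara and Rxra were both higher in 7 of the 29 comparisons and both lower in 4, and in 0 were they called in opposite directions; all 29 share the vehicle wells.

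Nr1i3, the gene of CAR, spanned the widest range of L2FC of the 10 genes, with 9 comparisons higher and 9 lower. Its vehicle wells held 4.96, 4.92 and 5.00 CPM in batch 1 and a lowest of 2.25, a median of 5.87 and a highest of 7.09 CPM in batch 2. WY14643 raised it to 34.7, 30.9 and 31.9 CPM in batch 1 and 38.2, 38.7 and 38.1 CPM in batch 2 at 8 µM (L2FC 3.04, SE 0.18, adjusted p = 4.6e-36). At 200 µM it was 36.8, 32.8 and 35.2 CPM in batch 1 and 38.9, 39.6 and 38.5 CPM in batch 2 (L2FC 3.06, SE 0.18, adjusted p = 1.3e-36), an 8.36-fold rise. The wells of both concentrations lay within a narrow band far above vehicle, and the difference between the concentrations was 0.02 (95% interval -0.33 to 0.37). Naproxen at 2000 µM gave 18.5, 19.1 and 19.6 CPM in batch 1 and 25.1, 26.6 and 29.4 CPM in batch 2 (L2FC 2.15, SE 0.18). Valproic acid at 400 µM (L2FC 2.08), sulfasalazine at 100 µM (2.07) and indomethacin at 300 µM (2.06, SE 0.18 each) came close to it, and all their wells were above vehicle in both batches.

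Nr1i3 was nearly absent in acetaminophen at 10000 µM and ranitidine at 4000 µM. Acetaminophen wells held 0, 0 and 0.201 CPM in batch 1 (1 count in all) and 0.458, 0 and 0.113 CPM in batch 2 (5 counts). Pooled over wells, vehicle was 74.9-fold higher in batch 1 (95% counting interval 13.1 to 2991) and 28.5-fold higher in batch 2 (12.0 to 88.8). With ranitidine the wells held 0.299, 0 and 0.669 CPM in batch 1 and 0.111, 0.239 and 0.115 CPM in batch 2, with vehicle 15.1-fold higher in batch 1 (6.70 to 42.2) and 35.7-fold higher in batch 2 (13.7 to 132). These intervals cover counting error only, and the fitted L2FC were -4.63 (SE 0.41) and -4.35 (SE 0.36). In the ST assay, no acetaminophen well had a count of Nr1i3, which makes it at least 22.6-fold lower than vehicle in batch 1 and at least 21.9-fold lower in batch 2, at a floor of 3 counts over the 3 wells. Ketoconazole at 15 µM left 1.29, 0.640 and 0.765 CPM in batch 1 and 1.51, 0.593 and 0.352 CPM in batch 2 (L2FC -2.53, SE 0.28, adjusted p = 5.8e-15), all below vehicle.

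Nr1i2, the gene of PXR, was higher in 9 comparisons and lower in 8, with smaller rises than Nr1i3. Vehicle wells held 125, 138 and 140 CPM in batch 1 and a lowest of 120, a median of 130 and a highest of 146 CPM in batch 2. WY14643 at 8 µM raised it to 272, 293 and 301 CPM in batch 1 and 273, 429 and 372 CPM in batch 2 (L2FC 1.57, SE 0.13, adjusted p = 5.8e-22), and at 200 µM the L2FC was 1.38 (SE 0.13). Acetaminophen at 10000 µM left 1.92, 4.00 and 2.42 CPM in batch 1 and 6.87, 4.03 and 6.08 CPM in batch 2, 21.8-fold below vehicle (L2FC -4.45, SE 0.19, adjusted p = 8.3e-53). Ranitidine at 4000 µM left 21.9, 14.4 and 24.9 CPM in batch 1 and 19.3, 27.0 and 20.4 CPM in batch 2 (L2FC -2.54, SE 0.16). Every well of these 4 groups lay outside the vehicle range of its batch. Valproic acid at 10000 µM (-1.94), diclofenac at 400 µM (-1.68) and isoniazid at 10000 µM (-1.42, SE 0.15 each) also lowered it, with all wells below vehicle. Nr1i2 and Nr1i3 were both higher in 8 of the 29 comparisons and both lower in 8, and in 0 were they called in opposite directions.

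**Figure D2:**
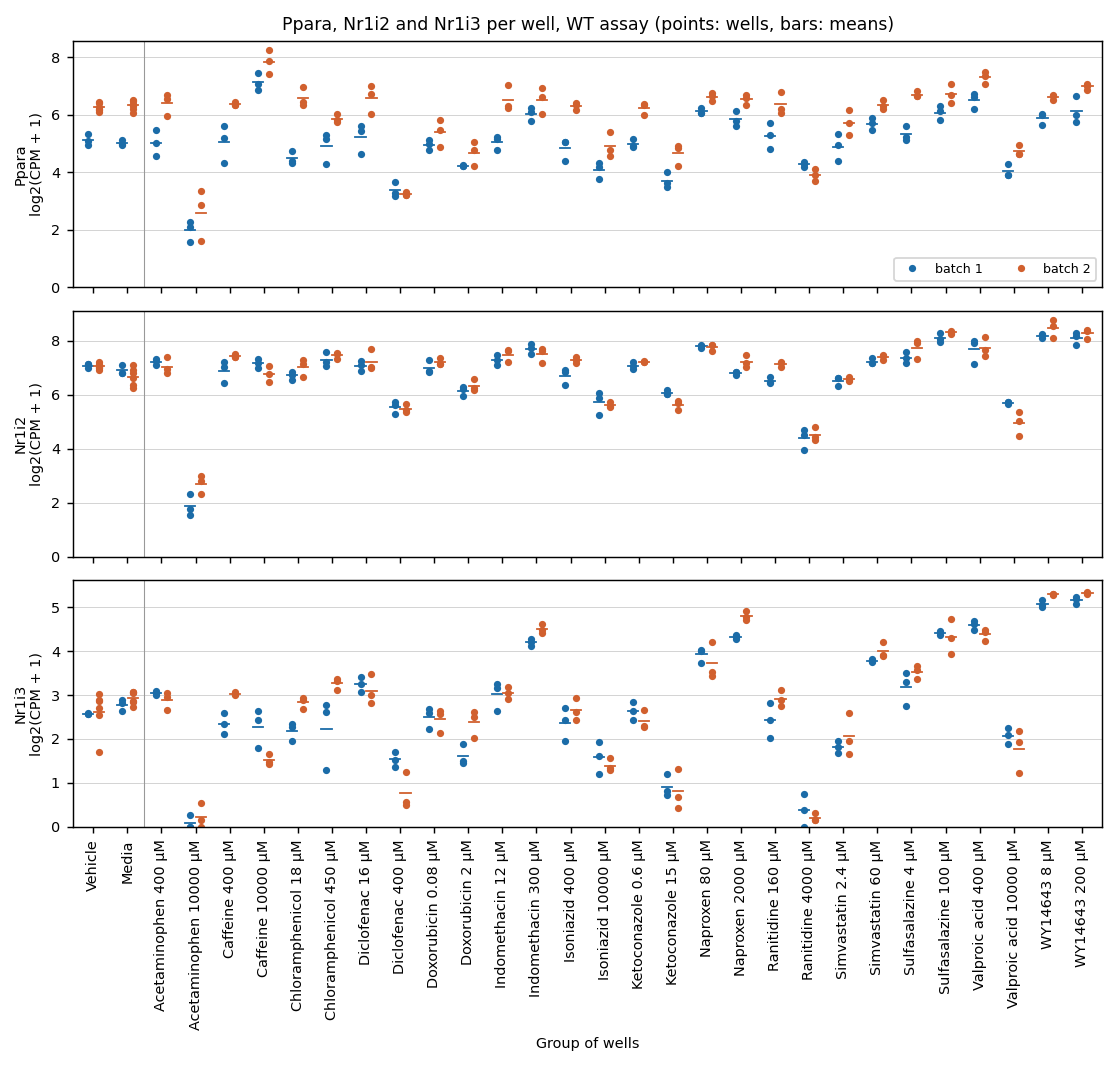
Level of Ppara, Nr1i2 and Nr1i3 in every WT well, as log2(CPM + 1), by treatment, with batch 1 in blue, batch 2 in orange and a bar at each mean. Ppara in vehicle was 29.4 to 38.6 CPM in batch 1 and 66.5 to 85.5 CPM in batch 2, and Nr1i3 sat near 0 in acetaminophen at 10000 µM and ranitidine at 4000 µM and at 30.9 CPM or more in all WY14643 wells.

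Simvastatin, a statin that lowers cholesterol synthesis, moved PXR and CAR transcripts in opposite directions at its 2 concentrations. Nr1i3 was 2.23, 2.51 and 2.89 CPM in batch 1 and 2.14, 5.04 and 2.86 CPM in batch 2 at 2.4 µM (L2FC -0.85, SE 0.22, adjusted p = 0.014), and 13.1, 12.6 and 12.6 CPM in batch 1 and 13.8, 14.2 and 17.6 CPM in batch 2 at 60 µM (L2FC 1.50, SE 0.19, adjusted p = 7.7e-12). The 60 µM wells were all above vehicle, and the 2.4 µM wells were below it in batch 1 and overlapped it in batch 2. Nr1i2 went from an L2FC of -0.54 (adjusted p = 0.012) to 0.35 (adjusted p = 0.049). Of 16 listed PXR and CAR target genes 9 were on the assay and 8 were tested. At 2.4 µM 0 of the 8 were called (median L2FC -0.09, against 0.00 over all genes, with 1.13% called higher and 1.28% lower), and at 60 µM 8 of 8 were higher (median 1.90, against 0.00, with 11.4% higher and 12.5% lower). Cyp2b2, a CAR-responsive cytochrome P450, rose from 0.880 to 5.83 CPM in vehicle to 35.1 to 105 CPM at 60 µM, and Gsta2, a glutathione transferase, from 15.3 to 32.3 CPM to 85.8 to 385 CPM. Cyp2b1 had at most 3 counts in a vehicle well and was 1.48 to 2.73 CPM at 60 µM, and with a vehicle mean of 2.11 counts it passed the filter only through groups where it is high, so that 7 of 7 is the count without it. It is also so close to Cyp2b2 in sequence that the probes may share reads.

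Ketoconazole, an azole antifungal that inhibits cytochrome P450 enzymes, lowered both receptors at 15 µM, and of the 8 targets 2 were higher, 2 lower and 4 not called (median L2FC -0.14, against -0.01 over all genes, with 25% higher and 26.3% lower). Cyp2b1 and Cyp2b2 were the 2 lower ones, Cyp2b2 at 0.323 to 1.34 CPM, and Gsta2 and the transporter gene Abcc2 were higher, Gsta2 at 59.7 to 163 CPM. Without Cyp2b1, whose vehicle mean was under the filter, 2 of 7 were higher and 1 lower.

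Nr1h3, the gene of LXRα, was lower in 6 comparisons and higher in 2. In vehicle it was 10.2, 15.7 and 12.0 CPM in batch 1, and in batch 2 it had a lowest of 8.30, a median of 11.6 and a highest of 15.1 CPM. Acetaminophen at 10000 µM left 0.549, 1.08 and 1.01 CPM in batch 1 and 2.40, 0.947 and 1.13 CPM in batch 2 (L2FC -2.80, SE 0.21, adjusted p = 9.8e-28). Valproic acid at 10000 µM left 2.53, 3.26 and 1.75 CPM in batch 1 and 2.27, 2.41 and 1.08 CPM in batch 2 (L2FC -2.67, SE 0.19, adjusted p = 4.6e-29). Both groups lay far below vehicle, and diclofenac at 400 µM (L2FC -1.34, SE 0.16) and isoniazid at 10000 µM (-1.13, SE 0.16) followed, also with no overlap. The 2 rises were small, 0.47 with doxorubicin at 2 µM and 0.58 with WY14643 at 200 µM. In doxorubicin at 2 µM several summed markers were below vehicle, and their part was not tested. These were hepatocyte (25920 to 31840 CPM), myeloid (4.14 to 8.01), stellate and fibroblast (3.22 to 18.2) and endothelial markers (0.13 to 0.81).

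LXR targets moved in both directions with simvastatin. Of 10 listed genes 8 were on the assay and 6 were tested. At 2.4 µM 1 was higher and 1 lower (median L2FC -0.32, against 0.00 over all genes, with 1.13% higher and 1.28% lower), and at 60 µM 2 were higher and 4 lower (median -0.69, against 0.00, with 11.4% higher and 12.5% lower). Abcg1, a cholesterol exporter, fell from 5.46 to 14.0 CPM in vehicle to 0.835 to 2.37 CPM at 2.4 µM and 0.720 to 2.22 CPM at 60 µM. Fasn, the fatty acid synthase, rose at both concentrations (L2FC 1.06 and 1.26, SE 0.16 each), and Scd, the stearoyl-CoA desaturase, rose at 60 µM (2.22, SE 0.18). Fasn and Scd are also targets of the sterol-sensing SREBP factors, and Nr1h3 itself was called at neither concentration.

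Nr1h4, the gene of FXR, was lower in 5 comparisons and higher in 3. Its vehicle wells held 26.9, 36.0 and 33.0 CPM in batch 1 and a lowest of 23.1, a median of 26.4 and a highest of 34.4 CPM in batch 2. Acetaminophen at 10000 µM lowered it to 1.92, 2.61 and 2.62 CPM in batch 1 and 3.21, 5.80 and 1.35 CPM in batch 2 (L2FC -2.86, SE 0.19, adjusted p = 6.5e-32), and diclofenac at 400 µM to 13.8, 17.1 and 12.0 CPM in batch 1 and 11.8, 17.8 and 19.0 CPM in batch 2 (L2FC -1.08, SE 0.15). All wells of the 2 groups lay below vehicle. Its largest rise was that of valproic acid at 400 µM (L2FC 0.79, SE 0.14), with all wells above vehicle.

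Nr0b2, the gene of SHP, was higher in 7 comparisons and lower in 3, on few counts. In vehicle its wells had 3 to 10 counts, 0.726, 1.09 and 1.79 CPM in batch 1 and a lowest of 0.450, a median of 0.962 and a highest of 1.56 CPM in batch 2. WY14643 at 200 µM raised it to 8.05, 7.55 and 12.2 CPM in batch 1 and 1.96, 2.91 and 1.86 CPM in batch 2 (L2FC 2.53, SE 0.30, adjusted p = 1.4e-13). Naproxen at 2000 µM raised it to 6.13, 7.63 and 7.33 CPM in batch 1 and 4.96, 6.39 and 5.38 CPM in batch 2 (L2FC 2.53, SE 0.30, adjusted p = 1.2e-13). Nr0b2 would not have passed the filter without the wells of either treatment, so their values partly chose it for the test. Both treatments cleared the vehicle wells in both batches, but the rise with WY14643 was 3.31 in batch 1 and 1.39 in batch 2. Unlike Nr1i3, Nr0b2 differed between the WY14643 concentrations, by 1.77 (SE 0.32, adjusted p = 2.5e-05), and it was not called at 8 µM.

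With acetaminophen at 10000 µM, Nr0b2 had 1 count over the 3 wells of batch 1 and none in batch 2. Vehicle was 17.2-fold higher in batch 1 (95% counting interval 2.78 to 709), and Nr0b2 was at least 8.26-fold lower than vehicle in batch 2 at a floor of 3 counts over the wells. The remaining named changes were those of naproxen at 80 µM (L2FC 1.48, SE 0.32), isoniazid at 10000 µM (-1.46, SE 0.47, adjusted p = 0.0088) and caffeine at 10000 µM (1.42, SE 0.33), and in each the wells of batch 2 overlapped vehicle. Naproxen at 80 µM and isoniazid were no longer called when the wells of a rat were added to 1 sample.

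Of 11 genes listed as FXR targets or genes of bile acid handling, 9 were on the assay and 5 were tested. With WY14643 at 200 µM 2 were higher and 2 lower (median L2FC -0.41, against -0.01 over all genes, with 26% called higher and 25.4% lower), and with acetaminophen at 10000 µM 2 were higher and 3 lower (median -0.49, against -0.02, with 38.8% of all genes called higher and 40.1% lower). Abcb11, the bile salt export pump, rose from 76.4 to 140 CPM in vehicle to 207 to 324 CPM with WY14643 and fell to 26.0 to 43.9 CPM with acetaminophen. Abcb4, the phospholipid floppase of the canaliculus, went the other way, from 0.587 to 2.10 CPM in vehicle to 0.115 to 0.639 CPM with WY14643 and 2.70 to 3.79 CPM with acetaminophen, and its vehicle mean of 7 counts was under the filter. Over the 4 other genes 2 were higher and 1 lower with WY14643, and 1 was higher and 3 lower with acetaminophen. The 1 higher with acetaminophen was Apoc2, whose L2FC was -0.24 in batch 1 and 0.97 in batch 2. Slc10a1, the sodium-dependent bile acid importer, fell with acetaminophen from 1.07 to 3.40 CPM to 0 to 0.355 CPM.

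Esr1 was called lower in 14 comparisons and higher in 0. Vehicle wells held 23.7, 31.5 and 31.2 CPM in batch 1 and a lowest of 27.9, a median of 32.2 and a highest of 37.4 CPM in batch 2. Diclofenac at 400 µM left 3.14, 4.68 and 4.12 CPM in batch 1 and 3.99, 2.91 and 2.72 CPM in batch 2, a 9.35-fold fall (L2FC -3.23, SE 0.17, adjusted p = 2.9e-42). Naproxen at 2000 µM left 2.48, 2.90 and 5.30 CPM in batch 1 and 4.11, 4.26 and 2.96 CPM in batch 2 (L2FC -3.06, SE 0.16, adjusted p = 6.7e-40). Indomethacin at 300 µM, a cyclooxygenase inhibitor as diclofenac and naproxen are, left 5.24, 4.82 and 7.62 CPM in batch 1 and 7.28, 5.06 and 6.83 CPM in batch 2 (L2FC -2.17, SE 0.15). No well of the 3 inhibitors reached the vehicle range, which began at 23.7 CPM. Summed hepatocyte markers were also below their vehicle range, at 7016 to 9498 CPM in diclofenac, 20090 to 21160 CPM in naproxen and 23920 to 29810 CPM in indomethacin, as were summed biliary markers, at 6.81 to 10.5, 9.74 to 20.1 and 17.7 to 24.7 CPM, and their part in the result was not tested.

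Caffeine at 10000 µM (L2FC -2.64, SE 0.16), ranitidine at 4000 µM (-2.38, SE 0.15) and acetaminophen at 10000 µM (-2.36, SE 0.16) lowered Esr1 by similar amounts, again with all wells below vehicle. WY14643 lowered it by 1.56 at 8 µM and by 1.58 at 200 µM, with 7.15 to 10.6 CPM in batch 1 and 6.97 to 9.44 CPM in batch 2 at 8 µM, and it was the only chemical with Esr1 called lower at its low concentration. At 200 µM summed hepatocyte markers (31050 to 35940 CPM) and biliary markers (25.03 to 36.92 CPM) were below vehicle, while at 8 µM both overlapped it (37840 to 39790 and 34.7 to 45.7 CPM), and their part in the result was not tested. In caffeine, naproxen, indomethacin and WY14643 the fall of Esr1 stood beside rises of other receptor genes, whereas in acetaminophen, diclofenac and isoniazid most of them fell with it. Of the 3 Esr1 probes 2 passed the filter, and fitted one by one they were called lower in 14 and 13 comparisons and higher in 0.

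**Figure D3:**
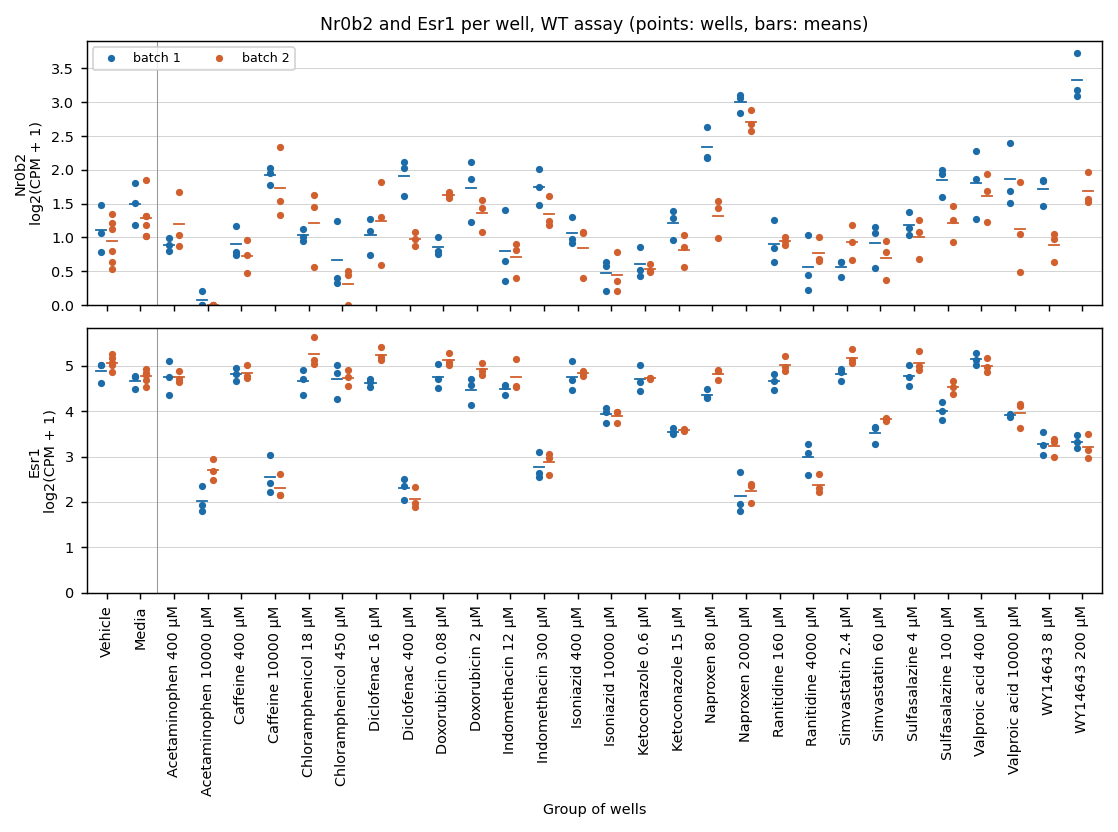
Level of Nr0b2 and Esr1 in every WT well, as log2(CPM + 1), by treatment, with batch 1 in blue, batch 2 in orange and a bar at each mean. Nr0b2 in WY14643 at 200 µM was 7.55 to 12.2 CPM in batch 1 and 1.86 to 2.91 CPM in batch 2, and Esr1 in diclofenac at 400 µM was 2.72 to 4.68 CPM against 23.7 to 37.4 CPM in vehicle.

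As for all genes, more changes of the receptor genes were called at the high concentrations than at the low ones. Of the 140 pairs of a gene and a chemical, 95 were called at the high concentration (41 higher, 54 lower) and 26 at the low one (22 higher, 4 lower), beside 50.9% and 9.41% of such pairs over all genes tested. Both concentrations were called in 22 pairs, of which 14 had the same direction and 8 opposite directions. Of the 8, 6 belonged to valproic acid and 2 to simvastatin. Tested against each other, the 2 concentrations differed in 82 of the 140 pairs, with the high one higher in 28 and lower in 54, beside 40.8% of the pairs over all genes tested.

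Valproic acid turned the direction of Ppara (L2FC 1.23 at 400 µM and -1.67 at 10000 µM), Rxra (0.31 and -1.18), Nr1i2 (0.73 and -1.94), Nr1i3 (2.08 and -1.13), Nr1h4 (0.79 and -0.95) and, the other way, Pparg (-0.55 and 2.11). Each of these 6 differences between the concentrations passed the test, with adjusted p from 8.4e-35 for Nr1i2 to 1.4e-19 for Nr1h4. Nr1i3 showed the largest of them, from 17.9 to 24.6 CPM at 400 µM down to 1.34 to 3.72 CPM at 10000 µM. At 10000 against 400 µM 7 receptor genes were lower and 2 higher, beside 65.3% of all genes called.

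WY14643 differed little between 8 and 200 µM, where only Nr0b2 was called (1 higher, 0 lower, 5.74% of all genes). Nr0b2 would not have passed the filter without the WY14643 200 µM wells, and no other receptor gene was called. It was also among the genes higher in naproxen at 2000 against 80 µM, and needed the naproxen 2000 µM wells to pass as well. High against low concentration gave 1 receptor gene higher and 8 lower for acetaminophen (76.3% of all genes), 2 and 7 for diclofenac (70%), 4 and 2 for caffeine (61.5%), 1 and 5 for ranitidine (57.5%), 3 and 3 for naproxen (47.4%) and 4 and 1 for indomethacin (43%). It gave 1 and 7 for ketoconazole (41.7%), 0 and 8 for isoniazid (31.4%), 1 and 2 for chloramphenicol (24.3%), 4 and 1 for simvastatin (24%), 4 and 1 for sulfasalazine (12.9%) and 0 and 2 for doxorubicin (10.3%). Naproxen raised 2 genes at the low concentration that were not called at the high one and that differed between the concentrations, with an L2FC of 0.84 at 80 µM and -0.01 at 2000 µM for Nr1i2 (difference -0.85, SE 0.15, adjusted p = 4.5e-07) and 0.64 and 0.16 for Rxra (difference -0.48, SE 0.11, adjusted p = 0.00011).

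Other nuclear receptors and their coregulators moved in both directions in the 5 treatments that called the most receptor genes. Of 36 other nuclear receptor genes 35 were on the assay and 22 were tested. In acetaminophen at 10000 µM 6 were higher and 11 lower (median L2FC -0.43), beside 38.8% of all genes higher and 40.1% lower, with the immediate early gene Nr4a2 (4.48, on a vehicle mean of 6.11 counts) and the clock gene Nr1d2 (4.09) among the higher ones. In diclofenac at 400 µM 10 were higher and 11 lower (median -0.40), beside 36% of all genes higher and 35.8% lower, with Nr4a2 at 3.07 and the estrogen-related receptor Esrrg at -2.58. Isoniazid at 10000 µM had 2 higher and 8 lower (median -0.27), beside 17.4% higher and 17.3% lower, and its largest decrease was that of the clock gene Nr1d1 (-2.10). Hnf4a, a master factor of hepatocyte identity, was lower in acetaminophen (-2.85), diclofenac (-1.91), isoniazid (-0.92) and valproic acid at 10000 µM (-0.61) and higher in WY14643 at 200 µM (0.48). Valproic acid at 10000 µM had 3 higher and 6 lower (median 0.02), beside 33.5% higher and 33.2% lower, and WY14643 at 200 µM had 11 higher and 4 lower (median 0.29), beside 26% higher and 25.4% lower, with Esrrg higher in both (1.07 and 1.72). Nr4a2 passed the filter only through groups where it is high, and over the 21 other genes 5 were higher in acetaminophen, 9 in diclofenac and 10 in WY14643, with the counts of lower genes as given. Nr1d1, among the higher genes of acetaminophen and diclofenac, had L2FC of -0.77 and -0.62 in batch 1 and 2.88 and 2.955 in batch 2.

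Of 12 coregulator genes 11 were on the assay and 9 were tested. The counts higher and lower were 2 and 2 in acetaminophen, 2 and 2 in diclofenac, 1 and 1 in isoniazid, 2 and 4 in valproic acid and 2 and 1 in WY14643, the last of which is 1 and 1 over the 8 whose vehicle mean passed the filter. Of all genes tested 78.9%, 71.7%, 34.7%, 66.7% and 51.4% were called in these treatments, in either direction. Ncoa1, a coactivator of many receptors, was higher in diclofenac (L2FC 0.69), isoniazid (0.53), valproic acid (0.94) and WY14643 (0.77). Ncoa3, another coactivator, was higher in acetaminophen (2.28), and Ppargc1b, a coactivator linked to mitochondrial genes, was higher in WY14643 (1.29). With a vehicle mean of 8.11 counts Ppargc1b passed the filter only through groups where it is higher.

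**Figure D4:**
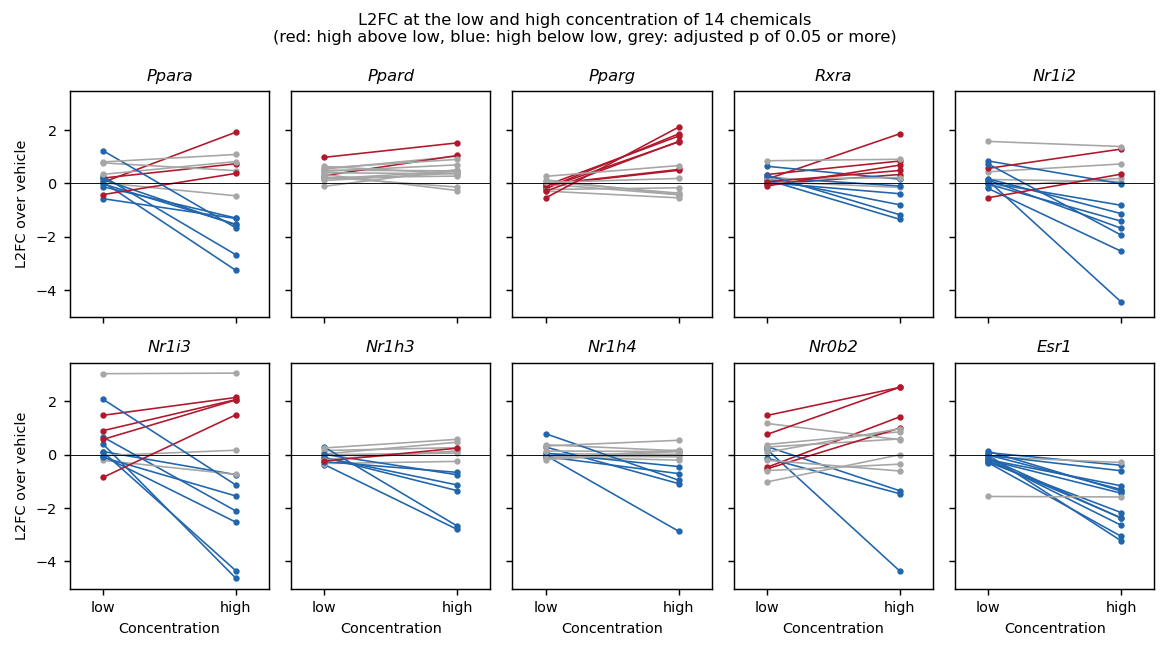
L2FC over vehicle at the low and at the high concentration of each of the 14 chemicals, 1 panel per receptor gene and 1 line per chemical. Red and blue lines (28 and 54 of 140) mark a high concentration above or below the low one at an adjusted p under 0.05, and Esr1 has 12 blue lines and no red one.

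The 2 batches gave the same direction for all 123 called changes when each batch was fitted alone, 98 of which were called in batch 1 and 108 in batch 2. The size of the response differed, since the batch by treatment interaction over all 29 terms passed for 7 of the 10 genes, beside 50.5% of all genes. These were Ppara, Pparg, Rxra, Nr1i2, Nr1i3, Nr0b2 and Esr1, with adjusted p from 1.2e-15 for Pparg to 0.00060 for Esr1. Ppard (adjusted p = 0.58), Nr1h3 (0.20) and Nr1h4 (0.13) did not pass. Pparg in isoniazid at 10000 µM was 1.10, 1.63 and 1.87 CPM in batch 1 (L2FC -1.72) and 12.4, 9.69 and 9.97 CPM in batch 2 (L2FC -0.10), so its call over both batches rested on batch 1. Rxra in sulfasalazine at 100 µM was 0.81 in batch 1 and 0.11 in batch 2, and -0.04 when the batch 2 wells were compared with vehicle of their own plate.

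**Figure D5:**
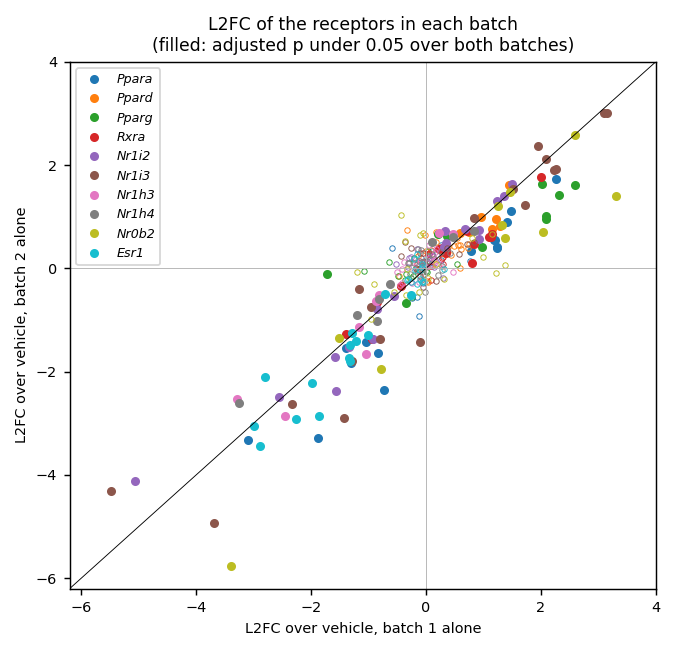
L2FC of each receptor gene over vehicle in batch 2 against batch 1, each batch fitted alone, with 1 point per gene and comparison (290 points) and the line of equality; filled points were called over both batches. All 123 filled points lie on the same side of 0 in both batches, and those of Nr0b2 and Pparg lie among the farthest from the line.

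The ST assay was run on lysate of the same wells, so it checks the probes and not the cells. Of the 106 called changes with an ST value, 105 had the same sign and 90 were called there too. The exception was Rxra in media, with an L2FC of 0.31 by WT and -0.04 by ST assay. The ST values were 3.11 and 3.15 for Nr1i3 in WY14643 at 8 and 200 µM and 1.94 for Rxra in caffeine at 10000 µM, against 3.04, 3.06 and 1.86 by WT assay, and -2.69 for Esr1 in diclofenac at 400 µM, against -3.23.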

How the data were processed

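Lysates of rat hepatocyte cultures were profiled by TempO-Seq, in which pairs of detector oligos are ligated on their target RNA and the ligated products are sequenced. The authors aligned the reads to rn6 with STAR 2.5.3a, per the labels, and deposited raw read counts per probe and well for the WT and the ST assay, 186 wells each. All values were computed from these counts. Probes of 1 gene symbol, case ignored, were summed, and CPM is the count of a gene over all reads of the well scaled to 1000000 reads. Total reads per well are given with the report and set the precision of low genes, and intervals and floors of 3 counts cover counting error only.

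The 10191 genes that averaged 10 counts or more per well were fitted with edgeR 4.0.16 (R 4.3.3, TMM, quasi-likelihood, batch plus treatment, all 186 WT wells in 1 fit), and p-values were adjusted by the Benjamini-Hochberg method over all genes, with 0.05 as the threshold. L2FC is the log2 fold change and its SE is the size of L2FC divided by the square root of F. Each treatment and media were compared with vehicle, and high with low concentrations. Counts were also simulated from the vehicle means of each batch, with 200 genes changed 2-fold in the wells labelled naproxen 2000 µM only. Of these, 177 were recovered, with 11 false calls among 10191 genes. The simulation held no other treatment effect and no difference in response between batches, so its rates do not describe the real comparisons. Wells are technical replicates of 1 rat per batch, so p-values measure mainly the spread between wells.

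The receptor genes, the lists of other genes and the rule for what is named were chosen with earlier results of these data known. The rule named, for each receptor gene, the called comparisons with an L2FC of at least 1 in size and 1 sign in both batches, up to 6, or the 2 largest if fewer qualified, up to 3 genes of each list, and the 2 genes of most similar pattern. Values of other comparisons given beside these were chosen after they were seen. Alternatives were DESeq2 1.42.0, other scaling, filters and thresholds, each batch alone, wells of a rat added, vehicle of the same plate, the ST assay, single probes and leaving out wells. One gene that the rule names is not reported here. Promoters came from RefSeq (GRCr8), and no coordinate of the alignment was used.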

Additional observations from a re-analysis of the deposited data

Results flagged for a closer look

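In 18 of 300 groups of wells, 1 gene in 1 treatment over both batches, 1 well stood apart from the rest by Dixon's criterion, which chance gives in about 1 of 20 groups. The highest well stood apart for Ppara in diclofenac at 400 µM (11.4 CPM, next 8.80), Ppard in acetaminophen at 400 µM (4.52, next 2.95) and in WY14643 at 8 µM (4.14, next 1.94), and Nr1i3 in simvastatin at 2.4 µM (5.04, next 2.89) and at 60 µM (17.6, next 14.2). The same was seen for Nr1h3 in acetaminophen at 10000 µM (2.40 CPM, next 1.13), for Nr1h4 in caffeine at 10000 µM (35.4, next 27.5), doxorubicin at 2 µM (34.0, next 28.1) and valproic acid at 400 µM (64.2, next 50.5), and for Esr1 in indomethacin at 12 µM (34.4, next 22.7). For Nr0b2, where few counts make the steps large, it was seen in acetaminophen at 10000 µM (0.154 CPM, next 0) and at 400 µM (2.20, next 1.04), chloramphenicol at 450 µM (1.38, next 0.415) and ketoconazole at 0.6 µM (0.806, next 0.516). The lowest well stood apart for Rxra in indomethacin at 300 µM (229.6 CPM, next 293), Nr1i3 in acetaminophen at 400 µM (5.30, next 6.72) and in vehicle (2.25, next 4.80), and Nr1h3 in ketoconazole at 0.6 µM (7.23, next 9.42). Of the 18 wells, 12 were in batch 2.

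For 7 receptor genes the response differed between the batches by the edgeR interaction test, with adjusted p-values over all 29 terms. The term with the largest difference, batch 2 minus batch 1, was -1.64 for Ppara in ranitidine at 4000 µM (adjusted p = 1.7e-06), 1.63 for Pparg in isoniazid at 10000 µM (1.2e-15) and -0.66 for Rxra in sulfasalazine at 100 µM (6.7e-10). It was 0.95 for Nr1i2 in acetaminophen at 10000 µM (4.0e-06), -1.46 for Nr1i3 in diclofenac at 400 µM (0.00012), -2.21 for Nr0b2 in acetaminophen at 10000 µM (0.00011) and -1.004 for Esr1 in ranitidine at 4000 µM (0.00060). The Nr0b2 value rests on at most 1 count in a treated well, and each p-value belongs to all terms of a gene together, not to the term shown.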

How the results depend on the processing

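Of the 123 calls, 122 remained with DESeq2, 123 with RLE scaling, 113 with plain library sizes, 114 with no filter, 107 with no batch term, 98 in batch 1 alone, 108 in batch 2 alone and 88 with the wells of a rat added to 1 sample. A required L2FC of 1 left 71 calls against vehicle, 53 between concentrations, and 3 for Ppard, 5 for Pparg, 3 for Rxra, 9 for Nr1i2, 4 for Nr1h3 and 2 for Nr1h4. With the wells of a rat added, Pparg had 5, Rxra 8 and Nr0b2 4 calls. Pparg had 5 calls with no batch term and 7 by its most abundant probe alone, Ppard had 4 in batch 1 alone, and Nr0b2 had 6 in batch 2 alone and 6 against vehicle of the same plate. Leaving out 1 well number at a time gave 113 to 126 calls in all and 7 to 11 for Pparg, with 7 without replicate 5. No call turned direction except 2 that were not called there, Rxra in sulfasalazine at 100 µM against vehicle of the same plate (L2FC -0.04, adjusted p = 0.81) and Rxra in media by ST assay (-0.04, adjusted p = 0.84). Of 47 changes named by the rule, Nr0b2 in naproxen at 80 µM and in isoniazid at 10000 µM were lost with the wells added, in batch 2 alone and against vehicle of the same plate, isoniazid also in batch 1 alone, and Ppard in acetaminophen at 10000 µM against vehicle of the same plate (0.58). Plain library sizes shifted the median gene by -0.41 in acetaminophen at 10000 µM, -0.28 and -0.23 in WY14643 at 8 and 200 µM and 0.27 in valproic acid at 10000 µM. The causes were not tested. No paired analysis was possible because the labels give no number that links a treated well to a vehicle well, and batch was a term of the fit. Batch 1 had vehicle on 1 plate, so plate and treatment cannot be told apart for 12 of its treatments.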

Other observations

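The genes whose levels followed each receptor gene most closely were found by Pearson's r over the 60 means of a treatment and batch, on log2(CPM + 1) centred by batch, as a description. These means share libraries, depth and vehicle wells. Ppara was most like Nr5a2 (r = 0.953), itself a nuclear receptor gene, and Ttc38 (0.943). Nr1i2 was most like LOC100909929 (0.970) and Ttpa (0.963), which encodes the hepatic α-tocopherol transfer protein. Nr1i3 was most like Slc6a13 (0.966), a GABA and taurine transporter gene, and Urad (0.944), a gene of urate breakdown. Esr1 was most like Sox5 (0.965) and Arhgap24 (0.956), and Nr1h3 was most like Msrb2 (0.911) and Aldh8a1 (0.898). Nr1h4 was most like Mmp14 (0.912) and Rtp3 (0.912). Rxra was most like Echs1 (0.880), a mitochondrial β-oxidation enzyme, and LOC100365958 (0.878). Pparg (Tom1l2 0.822 and Zfp597 0.820), Nr0b2 (Ech1 0.737 and Mcrip2 0.731) and Ppard (Gbf1 0.726 and Gopc 0.725) had lower values, and Nr0b2 and Ppard were also the receptor genes with the fewest counts.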
